A study of Rattus norvegicus with 6 samples.

Results

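Transcripts of 9 genes of salt transport in the thick ascending limb and the distal convoluted tubule were measured in rat renal cortex. Their probes were those whose RefSeq accession maps to Slc12a1, Slc12a3, Umod, Egf, Kcnj10, Kcnj16, Wnk1, Wnk4 or Stk39, which gave 20 probes. Of these, 18 probes of 8 genes were kept among 37822 probes and 11530 genes tested. Kcnj10 was not kept. In the treated group, 3 males of the Sprague-Dawley stock Crl:CD(SD) received ethylenediamine dihydrochloride, the salt of a small diamine, at 500 mg/kg/day for 4 weeks. In the control group, 3 males of that stock received water over the same time. All were 5 weeks old at purchase. Each animal gave 1 array of Cy3-labelled cRNA from total cortex RNA, so the spread between arrays includes the spread between animals.

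The thick ascending limb takes up sodium, potassium and chloride together through the apical cotransporter NKCC2, and the distal convoluted tubule that follows it takes up sodium with chloride through NCC. Potassium channels in the basolateral membrane of these cells set the voltage that lets chloride leave. Their state also reaches the kinases of the WNK family, which switch on the kinase SPAK, which in turn phosphorylates and activates both cotransporters. Uromodulin, the most abundant protein of normal urine, and the precursor of epidermal growth factor (EGF) are made by the same segments and are widely used as signs of distal tubular mass and function.

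Between 35691 and 40843 probes per array were well above background, and no spot was saturated. The arrays lay on 2 slides. Ethylenediamine replicates 2 and 3 were on slide 2, and ethylenediamine replicate 1 was on slide 1 with all 3 water arrays. Ethylenediamine replicate 1 also had the fewest probes well above background. The slide and the treatment therefore cannot be told apart on slide 2, and a value within slide 1 rests on ethylenediamine replicate 1 alone. The tissue label was checked against marker genes. All 8 proximal tubule markers were well above background on all 6 arrays. Their summed signal was 1940 to 1970 times the array's 75th percentile in ethylenediamine cortex and 1950 to 2030 in water cortex. Of 6 markers of inner medulla and thin limb, 4 were well above background on all 6 arrays, with a summed signal of 6.24 to 6.80 in ethylenediamine cortex and 5.26 to 8.11 in water cortex. Neither list was chosen for outer medulla, so its share in the tissue was not checked.

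No gene of the set passed the threshold after adjustment over all genes tested. The lowest values relative to water were those of Egf, Slc12a3, Kcnj16 and Wnk1, with log2 fold changes between -0.35 and -0.25, and Umod had the highest, at 0.25. By limma with Benjamini-Hochberg adjustment 0 of 8 genes were past an adjusted p of 0.05, as were 0 of 11530 genes, or 0% of all genes. At an unadjusted p under 0.05, 3 of the 8 genes (Kcnj16, Wnk1 and Egf) were lower in ethylenediamine cortex and 0 higher, against 4.97% lower and 5.39% higher among all genes tested. The groups did not overlap for Kcnj16 and Wnk1, both lower, where 8.27% of all genes were lower, and 9.2% higher, without overlap. The median log2 fold change was -0.20 over the 8 genes and 0.00 over all genes tested. The log2 fold change was below 0 for 6 of the 8 genes, as it was for 51.2% of all genes. Among the 18 kept probes it was below 0 for 11, as for 51.9% of all probes. By limma 6 of these probes had an unadjusted p under 0.05, all of them lower in ethylenediamine cortex, where 5.84% of all probes were lower and 4.85% higher, and 0 passed the adjusted threshold, which 0.0106% of all probes did. The groups did not overlap for 5 probes that were lower and 0 that were higher, against 9.57% and 8.43% of all probes. In a bulk tissue such as this, fewer cells of a type and less RNA per cell cannot be told apart.

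**Figure D1:**
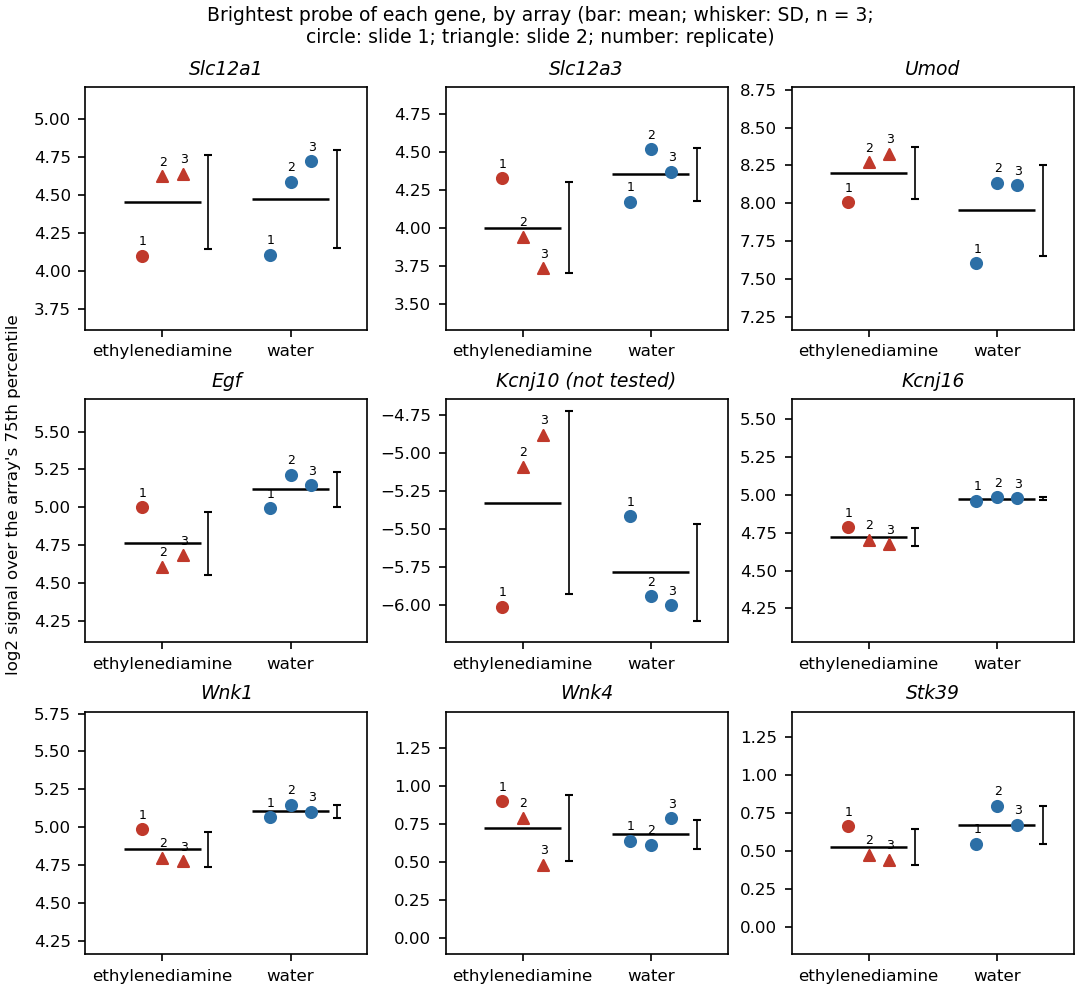
Log2 signal over the array's 75th percentile for the brightest probe of each gene, with 1 point per array, ethylenediamine at the left and water at the right, and a span of the same size in every panel. Bars are means and whiskers SD (n = 3). Kcnj16 and Wnk1 lie lower on all 3 ethylenediamine arrays, whereas for Slc12a3 and Egf the slide 2 arrays (triangles) are low and ethylenediamine replicate 1 lies among the water arrays.

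The upstream sequences of both cotransporter genes are shown because Slc12a1 and Slc12a3 mark the segments compared here and did not follow the same pattern over the arrays. They are the 250 bases before the annotated start in RefSeq, on the gene's strand, in GRCr8, which is not the rn4 build of the array. Capitals mark TATAAA (the TATA box) and CCAAT (the CCAAT box) on either strand.
Slc12a3, chr19:10675051-10675300, minus strand: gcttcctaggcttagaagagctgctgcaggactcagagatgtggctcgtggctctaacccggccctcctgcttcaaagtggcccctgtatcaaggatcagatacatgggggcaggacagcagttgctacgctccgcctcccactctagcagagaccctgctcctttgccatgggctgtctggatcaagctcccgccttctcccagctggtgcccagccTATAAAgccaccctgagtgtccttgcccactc
Slc12a1, chr3:132859409-132859658, plus strand: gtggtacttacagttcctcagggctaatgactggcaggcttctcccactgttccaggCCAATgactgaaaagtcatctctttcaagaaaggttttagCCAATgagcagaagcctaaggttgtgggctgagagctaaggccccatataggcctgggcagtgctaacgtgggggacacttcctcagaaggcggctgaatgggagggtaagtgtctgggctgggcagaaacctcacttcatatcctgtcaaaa
The Slc12a3 window holds a TATA box whose first base lies 32 bases before the start, and the Slc12a1 window, the first of its 2 entries, holds CCAAT boxes that begin 193 and 153 bases before it. TATAAA was present on either strand in 12.9% of 33469 such windows of all genes and CCAAT in 34.0%. These matches describe the letters and say nothing of a bound factor.

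Slc12a3 encodes NCC, the thiazide-sensitive sodium chloride cotransporter that defines the distal convoluted tubule. Its brightest probe had log2 signals of 4.33, 3.94 and 3.73 on ethylenediamine replicates 1 to 3, against 4.17, 4.52 and 4.37 on water replicates 1 to 3. The 2 slide 2 arrays were the lowest of the 6, and ethylenediamine replicate 1 lay between the water arrays, so the groups overlapped. Its log2 fold change was -0.35 ± 0.17 (SE, n = 3 per group), or 1.28-fold lower, with a limma 95% interval of -0.78 to 0.07 and an adjusted p of 0.543. The other Slc12a3 probes gave -0.28 ± 0.14 and -0.30 ± 0.18 with the same order of arrays in the ethylenediamine group. Within slide 1 the value was -0.03, and without ethylenediamine replicate 1 it was -0.52 at an adjusted p of 0.253. On ethylenediamine replicate 1, Slc12a3 was within the range of the water arrays.

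Slc12a1 encodes NKCC2, the loop-diuretic-sensitive cotransporter of the thick limb. Its brightest probe stood at 4.10, 4.62 and 4.64 on ethylenediamine replicates 1 to 3, against 4.11, 4.59 and 4.72 on water replicates 1 to 3. Replicate 1 of each group was low and the other arrays lay close together, so that the groups covered nearly the same range. The log2 fold change was -0.02 ± 0.22 (SE, n = 3 per group; 95% interval -0.56 to 0.52; limma adjusted p = 0.984), and the second probe gave 0.09 ± 0.23. The interval covers a difference in either direction as large as the -0.35 of Slc12a3. Within slide 1 the brightest probe stood at -0.37, and without ethylenediamine replicate 1 at 0.16.

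Within each array, the log2 ratio of Slc12a1 over Slc12a3 was set against its mean over the water arrays. It was -0.35, 0.56 and 0.79 on ethylenediamine replicates 1 to 3, against -0.18, -0.05 and 0.23 on water replicates 1 to 3. The ratio was high on the slide 2 arrays and lowest of all on ethylenediamine replicate 1. The difference between groups was 0.33, above the SD of 0.21 in water cortex and below that of 0.60 in ethylenediamine cortex (n = 3 each). A two-sided exact permutation test over the arrays gave p = 0.4 (adjusted p = 0.4 over the 2 ratios tested). Both ratios were chosen after the values were seen, and 3 arrays against 3 allow no p below 0.1.

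**Figure D2:**
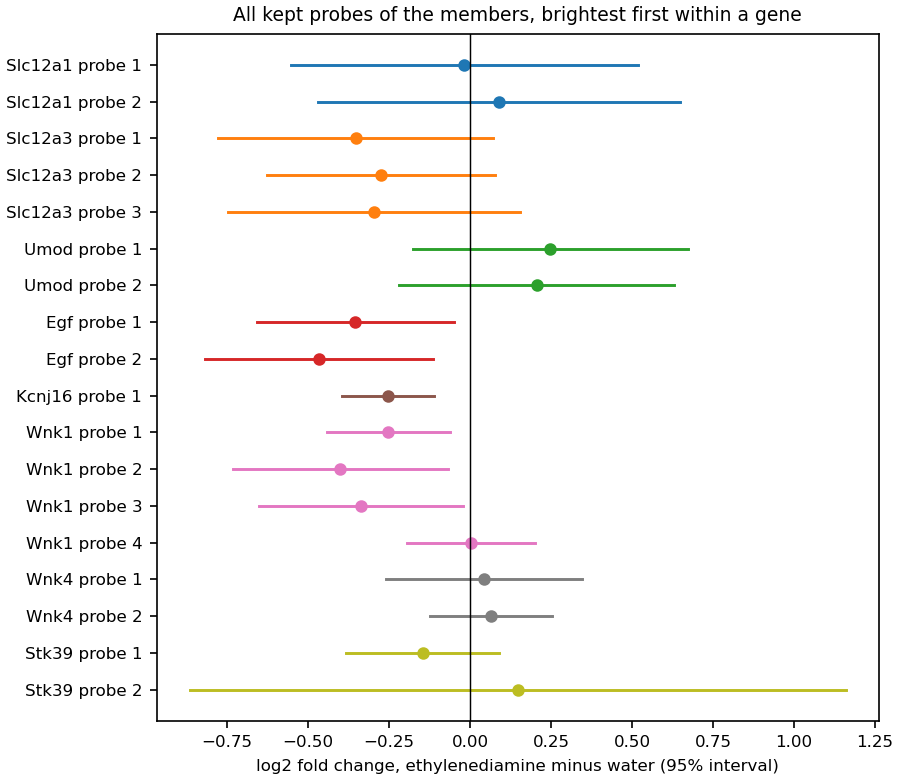
Log2 fold change, ethylenediamine minus water, of each of the 18 kept probes with its 95% interval from the fit over 37822 probes; probes are in order of brightness within a gene. All probes of Slc12a3 and Egf and 3 of the 4 Wnk1 probes lie below 0, while the fourth Wnk1 probe lies at 0.00.

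On both slide 2 arrays Egf was below, and Umod above, every water array. Their upstream windows are shown beside each other for that reason, in the same form as above.
Egf, chr2:220976298-220976547, minus strand: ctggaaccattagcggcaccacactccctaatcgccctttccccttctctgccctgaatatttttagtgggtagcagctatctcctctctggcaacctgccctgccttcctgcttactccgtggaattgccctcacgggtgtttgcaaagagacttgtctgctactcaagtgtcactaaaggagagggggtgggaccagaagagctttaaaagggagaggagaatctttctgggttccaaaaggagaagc
Umod, chr1:183261017-183261266, minus strand: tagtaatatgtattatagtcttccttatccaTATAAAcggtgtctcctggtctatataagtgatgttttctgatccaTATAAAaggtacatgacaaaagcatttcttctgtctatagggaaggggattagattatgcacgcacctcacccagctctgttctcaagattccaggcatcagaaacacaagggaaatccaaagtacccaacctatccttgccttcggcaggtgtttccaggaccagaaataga
The Umod window holds TATAAA beginning 219 and 173 bases before the annotated start, and the Egf window holds neither motif. GTTAAT, a half-site of the kidney transcription factor HNF1, was searched on both strands as well and was in none of the 4 windows shown, against 6.45% of all windows.

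Egf encodes the membrane-bound EGF precursor, which the distal convoluted tubule and thick limb shed into urine. Its brightest probe had log2 signals of 5.001, 4.61 and 4.68 on ethylenediamine replicates 1 to 3, against 4.99, 5.22 and 5.15 on water replicates 1 to 3. Ethylenediamine replicate 1 stood beside water replicate 1, and the slide 2 arrays lay below every water array. The log2 fold change was -0.35 ± 0.12 (SE, n = 3 per group), or 1.28-fold lower (95% interval -0.66 to -0.05; limma unadjusted p = 0.0284, adjusted p = 0.429). The second Egf probe stood at 2.92, 2.48 and 2.55 on the ethylenediamine arrays, against 2.94, 3.25 and 3.15 on the water arrays. On this probe the groups did not overlap, though replicate 1 of each group differed by little, and its log2 fold change was -0.47 ± 0.14. Within slide 1 the brightest probe stood at -0.12, and without ethylenediamine replicate 1 at -0.47.

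Umod encodes uromodulin, which the thick limb secretes and which marks that segment. It was among the brightest genes of the cortex, at the 99.7th percentile of signal over all genes tested. Its log2 signals were 8.01, 8.27 and 8.33 on ethylenediamine replicates 1 to 3, against 7.61, 8.14 and 8.12 on water replicates 1 to 3. Water replicate 1 was the low array, and ethylenediamine replicate 1 lay below the other water arrays. The fitted difference was 0.25 ± 0.17 on the log2 scale (SE, 3 arrays in each group; 95% interval -0.18 to 0.67; limma adjusted p = 0.654), less than the SD of the water arrays, 0.30. Both Umod probes gave nearly the same values on each array, with 0.21 ± 0.17 for the second. Without water replicate 1 the value was 0.07, and within slide 1 it was 0.05.

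The log2 ratio of Umod over Egf, relative to its mean over the water arrays, was 0.17, 0.83 and 0.81 on ethylenediamine replicates 1 to 3, against -0.22, 0.09 and 0.14 on water replicates 1 to 3. All ethylenediamine arrays lay above all water arrays, ethylenediamine replicate 1 by a narrow margin. The difference between groups was 0.60 (SD 0.37 in ethylenediamine cortex and 0.20 in water cortex, n = 3 each), at the smallest p that the two-sided exact permutation test can give here (p = 0.1, adjusted p = 0.2 over the 2 ratios). Within slide 1 the difference was 0.17. Umod and Egf had the highest and the lowest log2 fold change of the 8 genes, and the pair was chosen after the values were seen. A wide gap was therefore favoured by the choice, so this p is no evidence of a difference between groups.

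The basolateral potassium channels differed from each other in how well they were measured. Kcnj16 encodes Kir5.1, which is silent alone and forms the basolateral channel of the distal nephron together with Kir4.1, the product of Kcnj10. The single Kcnj16 probe stood at 4.79, 4.70 and 4.67 on ethylenediamine replicates 1 to 3, against 4.96, 4.98 and 4.98 on water replicates 1 to 3. All ethylenediamine arrays were below all water arrays, and the water arrays lay closer together than for most genes: their SD of 0.01 was at the 1.6th percentile of all genes tested. The log2 fold change was -0.25 ± 0.05 (SE, n = 3 per group), or 1.19-fold lower (95% interval -0.39 to -0.12). It had the smallest unadjusted p of the set, 0.0036, with a limma adjusted p of 0.329. Within slide 1 it was -0.19, and under other processing settings the adjusted p for Kcnj16 lay between 0.208 and 0.639.

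Kcnj10 lay near background in this cortex. Its brighter probe had log2 signals of -6.01, -5.09 and -4.88 on ethylenediamine replicates 1 to 3, against -5.42, -5.94 and -6.00 on water replicates 1 to 3. It was well above background on 2 of 3 ethylenediamine arrays, those of slide 2, and on 1 of 3 water arrays, replicate 1. The other Kcnj10 probe was well above background on 0 of 6 arrays. No fold is given for Kcnj10. A dim probe gives a bound on its own signal and does not show that the transcript was missing.

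The kinases regulate both cotransporters. Wnk1 encodes a WNK kinase with a long form made in many tissues and a kidney-specific form, without most of the kinase domain, that prevails in the distal convoluted tubule. The brightest of 4 Wnk1 probes stood at 4.99, 4.80 and 4.78 on ethylenediamine replicates 1 to 3, against 5.06, 5.15 and 5.10 on water replicates 1 to 3. The groups did not overlap, and the slide 2 arrays were again the lowest. The log2 fold change was -0.25 ± 0.07 (SE, n = 3 per group), or 1.19-fold lower (95% interval -0.44 to -0.07; limma unadjusted p = 0.0158, adjusted p = 0.38). The next 2 probes gave -0.40 ± 0.13 and -0.34 ± 0.13, also without overlap, although on the dimmer of these ethylenediamine replicate 1 read -2.006 and water replicate 1 read -2.002.

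The fourth Wnk1 probe did not follow the others. It stood at -2.27, -2.12 and -2.27 on ethylenediamine replicates 1 to 3, against -2.12, -2.26 and -2.31 on water replicates 1 to 3, with a log2 fold change of 0.00 ± 0.08 and a 95% interval of -0.20 to 0.20. It names the same RefSeq transcript record as the second probe, and the other probes share another record, so the record does not part the probes that stood lower from the one that did not. Which transcript form each probe reads is not given in the files. Within slide 1 the brightest probe was at -0.12.

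Wnk4 encodes a kinase of the distal nephron in which human mutations cause familial hyperkalaemic hypertension. It stood at 0.90, 0.79 and 0.48 on ethylenediamine replicates 1 to 3, against 0.64, 0.62 and 0.79 on water replicates 1 to 3. The ethylenediamine arrays spread wider than the water arrays, on both sides of them. Its fitted log2 fold change was 0.04 ± 0.12 (SE, n = 3 per group; 95% interval -0.26 to 0.34; limma adjusted p = 0.922), and the second probe gave 0.06 ± 0.08. Without ethylenediamine replicate 1 the brightest Wnk4 probe stood at -0.04.

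Stk39 encodes SPAK, the kinase that WNK kinases activate and that phosphorylates NCC and NKCC2. Its brighter probe stood at 0.66, 0.47 and 0.44 on ethylenediamine replicates 1 to 3, against 0.55, 0.80 and 0.67 on water replicates 1 to 3. The slide 2 arrays were the lowest, and ethylenediamine replicate 1 lay within the water range. For SPAK the log2 fold change was -0.15 ± 0.09 (SE, n = 3 per group; 95% interval -0.38 to 0.09; limma adjusted p = 0.635). The dimmer Stk39 probe stood at -2.81, -2.70 and -1.27 on ethylenediamine replicates 1 to 3, against -2.43, -2.45 and -2.34 on water replicates 1 to 3. Ethylenediamine replicate 3 was far above the other 5 arrays on that probe but not on the brighter one. The dimmer probe had a log2 fold change of 0.15 ± 0.41. Without that array the dimmer probe stood at -0.35.

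Over the arrays, 5 of the 8 genes (Slc12a3, Egf, Kcnj16, Wnk1 and Stk39) were lower on both slide 2 arrays than on any water array, a pattern that 16.4% of all genes tested shared. On ethylenediamine replicate 1 it was 3 of 8 genes (Slc12a1, Kcnj16 and Wnk1) that lay below every water array, against 27.9% of all genes. The median deviation of the 8 genes from the water mean was -0.07, -0.24 and -0.27 on ethylenediamine replicates 1 to 3, against -0.13, 0.11 and 0.02 on water replicates 1 to 3. Of the 8 genes, 7 had their lowest water value on water replicate 1, with Wnk4 the exception, where 35.1% of all genes did.

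**Figure D3:**
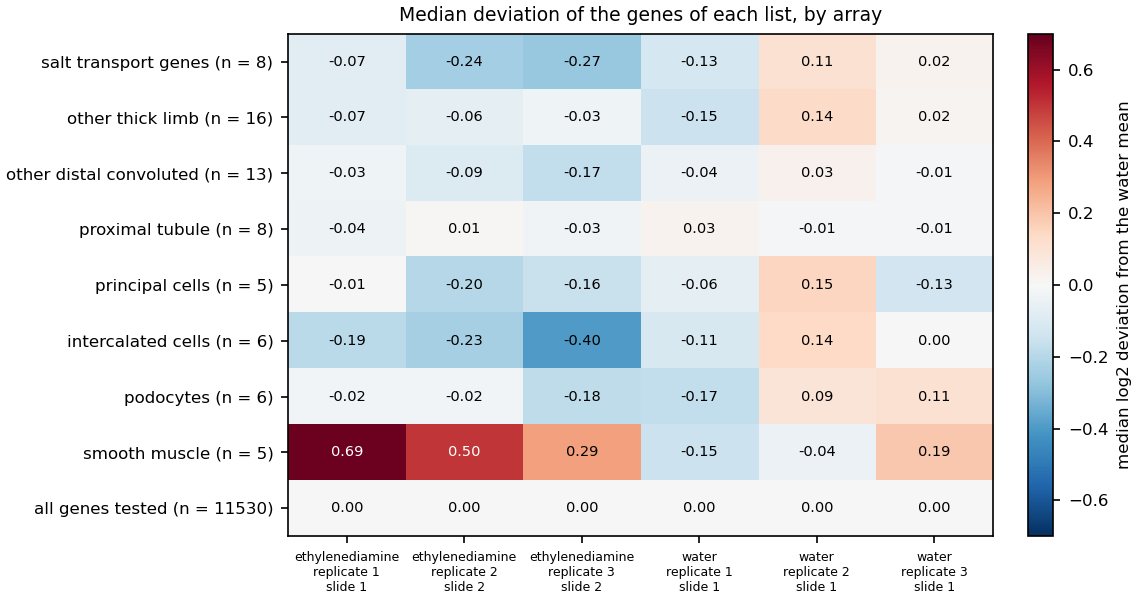
Median log2 deviation from the mean of the water arrays over the tested genes of each list, by array, ethylenediamine arrays at the left. The salt transport genes are lowest on the slide 2 ethylenediamine arrays, the other thick limb genes are lowest on water replicate 1, and smooth muscle genes are high on all ethylenediamine arrays.

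Other genes of the thick limb were taken from a list of 17, of which 16 were tested. Of these, 12 had a negative and 4 a positive log2 fold change, and their median was -0.08. By limma 0 passed the adjusted threshold. At an unadjusted p under 0.05, 1 of the 16 was lower and 2 were higher, against 4.97% and 5.39% of all genes. The groups did not overlap for 1 that was lower and 1 that was higher, against 8.27% and 9.2% of all genes. Cldn19, a tight junction claudin needed for magnesium uptake, stood at 0.41 ± 0.17 with overlap of the groups, and Cldn14, a claudin that limits calcium uptake, at -0.28 ± 0.10 without overlap (SE, n = 3 per group), with adjusted p of 0.481 and 0.452. Within slide 1 Cldn19 stood at 0.14, and with the normexp background correction the dim Cldn14 probe stood at -0.10 (limma unadjusted p = 0.29). Within the water group, 15 of the 16 genes were lowest on water replicate 1, as were Slc12a1 and Umod. The summed signal of the list was 252 to 303 in ethylenediamine cortex and 284 to 349 in water cortex.

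Among 13 tested genes of a list of 15 for the distal convoluted tubule and its calcium and magnesium handling, 10 had a negative and 3 a positive log2 fold change, with a median of -0.10. By limma 0 passed the adjusted threshold. An unadjusted p under 0.05 was found for 3 of the 13 on the lower side and 0 on the higher side, against 4.97% and 5.39% of all genes. The groups did not overlap for 4 that were lower and 0 that were higher, against 8.27% and 9.2% of all genes. Calb1, a calcium-binding protein of the distal tubule, had log2 signals of 2.13, 1.63 and 1.67 on ethylenediamine replicates 1 to 3, against 2.58, 2.75 and 2.78 on water replicates 1 to 3. All ethylenediamine arrays were below all water arrays, with a log2 fold change of -0.89 ± 0.15 (adjusted p = 0.305) and -0.58 within slide 1. The calcium channel Trpv5 stood at -0.44 ± 0.13 (adjusted p = 0.394) and the sodium-calcium exchanger Slc8a1 at -0.41 ± 0.13 (adjusted p = 0.402; SE, n = 3 per group). The values of Trpv5 and Slc8a1 were -0.29 and -0.23 within slide 1. On both slide 2 arrays, 6 of these 13 genes were below every water array, as were 16.4% of all genes. On ethylenediamine replicate 1, which shared slide 1 with the water arrays, 6 of the 13 were below every water array, against 27.9% of all genes. Pvalb, which marks the early distal convoluted tubule in rodents, was well above background on 0 of 6 arrays, and Trpm6 had no named probe.

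**Figure D4:**
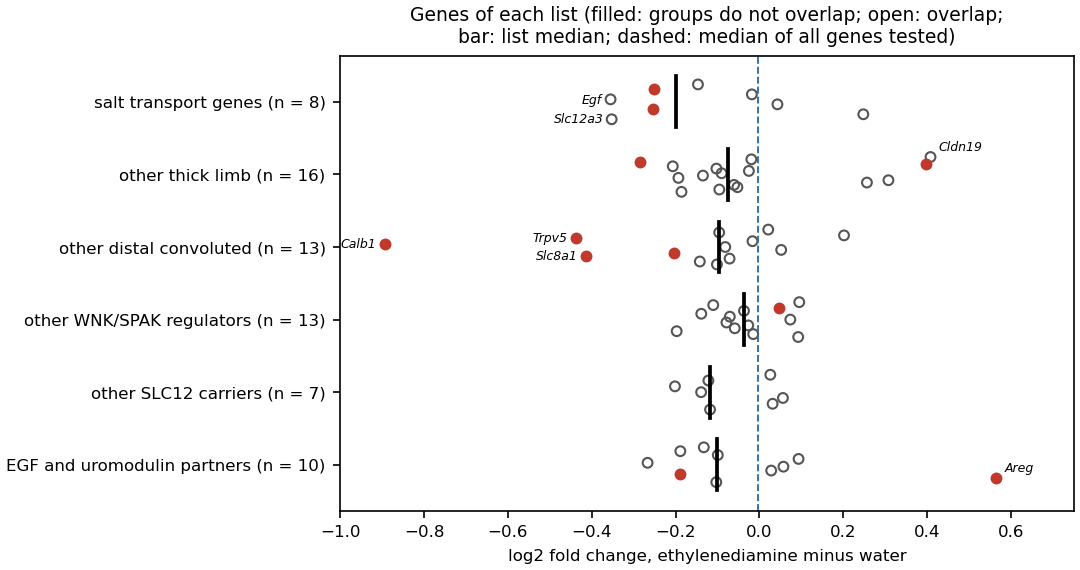
Log2 fold change, ethylenediamine minus water, of each tested gene in 6 lists. Filled points are genes whose groups do not overlap, black bars are list medians and the dashed line is the median of all genes tested. Among these 6 lists the salt transport genes have the lowest median, -0.20, and Calb1 the lowest single value, -0.89. The cell marker lists are not drawn, and of them the intercalated cell markers had a lower median, -0.28.

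The further regulators of the WNK and SPAK kinases lay close to 0. Of 19 listed, 13 were tested, with 9 negative and 4 positive, a median of -0.04 and a range of -0.20 to 0.10, and 0 were past the adjusted threshold or an unadjusted p under 0.05 in limma. Sgk2, a kinase related to the aldosterone-induced Sgk1, stood at -0.14 ± 0.08, the ubiquitin ligase Nedd4 at 0.10 ± 0.08 and the WNK-binding protein gene Tsc22d4 at 0.07 ± 0.06 (SE, n = 3 per group). The other cation-chloride cotransporters (7 of 7 tested) had a median of -0.12, with 4 negative, 3 positive and 0 at an unadjusted p under 0.05. Among them Slc12a5 stood at -0.20 ± 0.13 and Slc12a9 at -0.14 ± 0.13.

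Around EGF and uromodulin, 10 of 11 listed receptors, ligands and proteases were tested, with 6 negative, 4 positive and a median of -0.10. By limma 0 passed the adjusted threshold. An unadjusted p under 0.05 was found for 1 gene of 10 on each side, against the 5.39% higher and 4.97% lower among all genes. The same 1 gene on each side had groups that did not overlap, against the 9.2% and 8.27% of all genes. Areg, which encodes the EGF receptor ligand amphiregulin, stood at 0.57 ± 0.19 (adjusted p = 0.407) and Hbegf, another ligand, at -0.19 ± 0.07 (adjusted p = 0.461). With the normexp background correction these dim probes stood at 0.33 for Areg (limma unadjusted p = 0.0559) and -0.05 for Hbegf (limma unadjusted p = 0.461). The channel-activating protease Prss8 stood at -0.19 ± 0.13. The EGF receptor gene Egfr had -0.10 ± 0.14 and hepsin (Hpn), the protease that releases uromodulin, 0.06 ± 0.06 (SE, n = 3 per group).

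Markers of neighbouring cells were read on the same arrays, and their part in the values above was not tested. Intercalated cell markers were negative for 6 of 6 genes, with a median of -0.28 and a summed signal of 135 to 156 in ethylenediamine cortex and 170 to 208 in water cortex. Of these 6 genes, 3 were lower and 0 higher without overlap of the groups, against 8.27% and 9.2% of all genes. Principal cell markers were negative for 5 of 5 tested, with a median of -0.15 and a summed signal of 124 to 152 in ethylenediamine cortex and 165 to 205 in water cortex. Aqp2 was by far the brightest of those 5, at a mean log2 signal of 6.45 in ethylenediamine and 7.01 in water cortex. It therefore weighed most in that sum. Only Aqp2 among them had groups that did not overlap, where 8.27% of all genes were lower without overlap. The named genes were Atp6v1g3 at -0.43, Slc26a4 at -0.48, Atp6v0d2 at -0.25, Aqp2 at -0.57, Scnn1g at -0.15 and Aqp3 at -0.19. Smooth muscle and juxtaglomerular markers were positive for 5 of 5 tested, with a median of 0.41 and Tagln at 0.83, Myh11 at 0.71 and Acta2 at 0.41. Their summed signal was 36.5 to 52.3 in ethylenediamine cortex and 25.1 to 40.3 in water cortex. Of these 5 genes, 4 were higher and 0 lower without overlap of the groups, against 9.2% and 8.27% of all genes.

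Proximal tubule markers had a median of 0.00, with 4 of 8 negative, and Lrp2 at -0.19, Slc5a2 at -0.14 and Slc22a8 at 0.05. Podocyte markers had a median of -0.08 (5 of 6 negative), with Nphs1 at -0.16 and Synpo at -0.06, and a summed signal of 31.9 to 40.4 in ethylenediamine cortex and 35.5 to 44.1 in water cortex. Endothelial markers had -0.09 (4 of 6 negative), with Tek at -0.19, Kdr at -0.15 and Pecam1 at -0.11, and a summed signal of 29.6 to 37.4 in ethylenediamine cortex and 36.8 to 39.6 in water cortex. The 3 tested of 6 leukocyte markers had -0.04, with Ptprc at -0.07, Cd68 at -0.04 and Csf1r at -0.03, and a summed signal of 2.71 to 3.07 in ethylenediamine cortex and 2.58 to 3.34 in water cortex. Medullary markers had 0.00 (3 of 6 negative), with Slc14a1 at 0.38 and Bdkrb1 at -0.88, each well above background on only 2 of 3 ethylenediamine arrays and kept through the water arrays, and Akr1b1 at 0.15. With normexp Slc14a1 stood at 0.11 and Bdkrb1 at -0.23, and Bdkrb1 stood at -1.89 within slide 1 and -0.37 without ethylenediamine replicate 1. By limma 0 of these marker genes passed the adjusted threshold.

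The genes whose log2 values over the 6 arrays were most like those of 4 members were read off by Pearson's r, as a description over 6 arrays that share slide and treatment. These genes were picked for the highest r among all genes tested, and with 6 arrays such a choice favours values near 1. For Slc12a3 they were the proton pump gene Atp6v1b1 (r = 0.997) and Ankrd13c (r = 0.994). For Egf they were Ttc41 (r = 0.994) and Tceal8 (r = 0.993). For Slc12a1 they were Spin2a (r = 0.993) and Adamts10 (r = 0.989), and for Umod Fzd8 (r = 0.990) and Gsdmdl1 (r = 0.985).

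**Figure D5:**
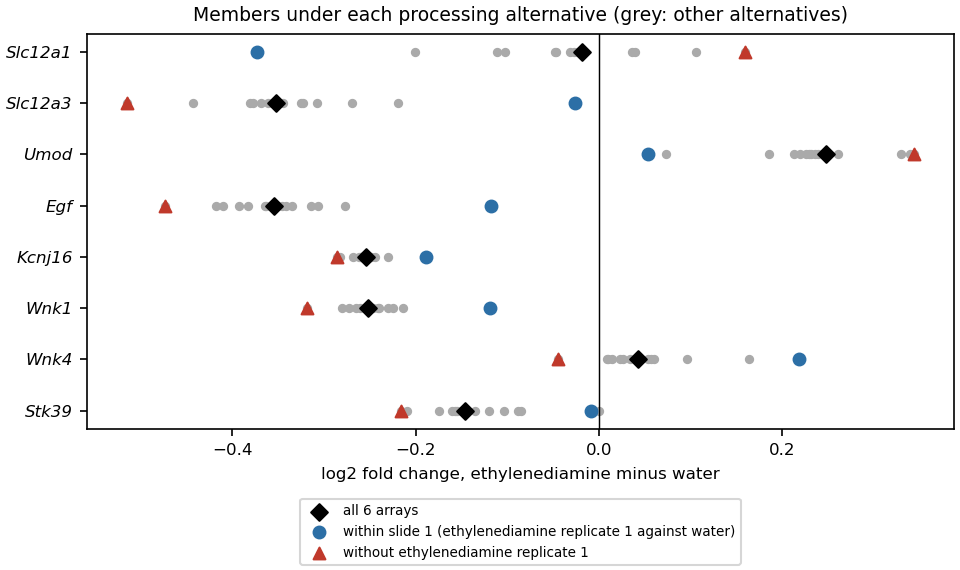
Log2 fold change, ethylenediamine minus water, of the 8 tested genes under each processing alternative. Black diamonds are all 6 arrays, blue circles ethylenediamine replicate 1 against water within slide 1, red triangles the fit without ethylenediamine replicate 1, and grey points the other alternatives. Kcnj16 stays between -0.29 and -0.19, whereas Slc12a3 spans -0.52 to -0.03.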

How the data were processed

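RNA of 6 renal cortices was read on 1-colour Agilent arrays. Per the file headers, the deposited intensity is linear, background-subtracted by Agilent Feature Extraction 10.7.1.1 and not scaled between arrays, on a grid built on rn4. The deposited processed table holds the same intensity divided by the array's 75th percentile (99.97% of probes within 2%) and served as an alternative.

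Here log2 of the processed intensity minus the array's 75th percentile was used. Control spots (1439) and 22 probes with an outlier flag were left out. Accessions gave symbols for 28194 of 61515 probes through RefSeq (GRCr8). A probe was kept if well above background on all 3 arrays of a group, and the brightest kept probe stood for a gene. The test was that of limma 3.58.1 under R 4.3.3, through lmFit and eBayes (4 residual and 1.84 prior degrees of freedom), with Benjamini-Hochberg adjustment, and every probe was also fitted alone. The number of arrays limits the precision.

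Members and gene lists were chosen with earlier results of these data known. The genes named were all members, the 3 with the smallest p in each list and the 2 most like each of 4 members; Egfr, Hpn and Pvalb were added after their values were seen, and some genes the rule names are not reported here. The normexp alternative started from the median spot signal, the column used here.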

Additional observations from a re-analysis of the deposited data

How the results depend on the processing

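Under 21 alternatives, 0 of the 8 salt transport genes passed the adjusted threshold. The count of all genes past it, 0, became 10 with slide as a fixed block, 6 within slide 1 and 1 with an intensity trend. Leaving out 1 array gave 0 to 1, with 1 without ethylenediamine replicate 1 or water replicate 2. The count of all probes, 4, became 7 with normexp, 76 with slide as a fixed block and 0 with the replicate block. Leaving out 1 array gave 1 to 9 probes, with 9 without ethylenediamine replicate 1, 7 without water replicate 2, 2 without ethylenediamine replicate 3 or water replicate 1, and 1 without ethylenediamine replicate 2 or water replicate 3. Same-numbered arrays had correlations of -0.003, 0.022 and -0.008 in their deviations from the group means. They thus shared no common deviation over all genes, which does not show whether the numbers pair samples. With the replicate block 0 genes passed. Signs turned as follows, and the cause was not tested. Within slide 1, and equally with slide as a fixed block, the log2 fold change was -0.35 for the second Slc12a1 probe, 0.021 for the dimmest Slc12a3 probe, -0.0019 for the second Umod probe, -0.049 for the fourth Wnk1 probe, -0.40 for the dimmer Stk39 probe, -0.35 for Slc12a1 over Slc12a3, -0.0031 for Tsc22d4, 0.10 for Slc12a5, 0.0109 for Aqp3 and 0.10 for Cd68. With the mean of a gene's kept probes it was 0.036 for Slc12a1, 3e-04 for Stk39 and -0.0103 for Slc22a8. The fourth Wnk1 probe was at -0.026 with median scaling, -2e-04 with quantile normalization, -0.0061 with the percentile over probes well above background and -0.0023 with slide as a random block. Leaving out 1 array gave -0.20 to 0.16 for Slc12a1, -0.045 to 0.16 for Wnk4, -0.0044 to 0.32 for Akr1b1, -0.20 to 0.035 for Ptprc, -0.071 to 0.041 for Csf1r, -0.15 to 0.074 for Cd68, -0.062 to 0.31 for the second Slc12a1 probe, -0.049 to 0.058 for the fourth Wnk1 probe and -0.35 to 0.42 for the dimmer Stk39 probe. With 3 arrays in each group, and 1 ethylenediamine array on slide 1 assumed to vary like the others, small differences were not detectable. Kcnj10 was too near background to be kept and tested. With no background filter it was fitted too, and 0 of the 9 members passed the adjusted threshold.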
